A study of Mus musculus with 10 samples.

Results

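The 9 transcription factor genes described here were taken from a table of read counts for 24454 mouse genes by matching its Entrez identifiers to the symbols Snai1, Snai2, Zeb1, Zeb2, Twist1, Foxf2, Foxc2, Hmga2 and Sox4, and all 9 were found. They were followed by RNA sequencing in NMuMG/E9 cells (subclone 9 of NMuMG, an epithelial line from normal mouse mammary gland). Cells received 20 nM of an siRNA against Irf1 (siIrf1), which encodes interferon regulatory factor 1, or of a control siRNA (siCtr). Recombinant human TGFbeta1 at 2 ng/ml was added 1 d later, and the cells were collected 3 d after transfection, so that they had 2 d of the cytokine. Cells called 0 d were kept as long after transfection but had no TGFbeta. There were 3 siIrf1 TGFbeta libraries, 2 siCtr TGFbeta libraries (replicates 2 and 3), 3 siIrf1 0 d libraries and 2 siCtr 0 d libraries (replicates 1 and 3). All came from 1 subclone, all cells were transfected, and untransfected cells are not analysed here. The labels do not say whether replicates were separate cultures, so the p-values speak of the spread among these libraries and no more.

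Epithelial-mesenchymal transition (EMT) is the loss of epithelial junctions and polarity and the gain of a motile, matrix-producing state, and NMuMG cells are a much used model of its induction by TGFbeta. A small set of transcription factors drives it. Snai1, Snai2, Zeb1 and Zeb2 are zinc finger repressors that bind E-boxes in epithelial genes such as Cdh1, the gene of E-cadherin. Twist1 is a basic helix-loop-helix factor, Foxf2 and Foxc2 are forkhead factors, Hmga2 is an AT-hook chromatin protein that acts with Smad proteins on the Snai1 promoter, and Sox4 is an HMG-box factor induced by TGFbeta.

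MicroRNAs restrain several of these mRNAs: the miR-200 family represses Zeb1 and Zeb2, which in turn repress the miR-200 genes, and let-7 represses Hmga2. Mature microRNAs were not measured here, and the 5 miR-200 family precursor genes of the table held 1 count over all 10 libraries. The mature sequences are shown because the factors differ in whether they carry matches to them. They are from RefSeq (GRCm38.p6), with the seed (bases 2 to 8) in capitals.
miR-200b-3p: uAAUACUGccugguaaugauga
miR-200c-3p: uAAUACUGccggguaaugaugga
miR-429-3p: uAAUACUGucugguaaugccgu
miR-200a-3p: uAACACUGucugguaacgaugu
miR-141-3p: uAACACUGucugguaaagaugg
let-7a-5p: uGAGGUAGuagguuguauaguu
let-7g-5p: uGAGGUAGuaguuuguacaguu
The first 3 share 1 seed, miR-200a-3p and miR-141-3p share another that differs from it at a single base, and both let-7 members share the last.

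The longest annotated 3′ untranslated region (UTR) of each factor was searched on the mRNA strand for the letters complementary to these seeds. CAGTATT, the match to the first seed, stood 5 times in Zeb1 and 5 times in Zeb2, once each in Snai1, Snai2 and Foxf2, and not in the other 4 factors. Of the 4150 UTRs at least as long as that of Zeb1, 0.145% held as many, and of the 822 at least as long as that of Zeb2, 0.487% did. CAGTGTT, the match to the seed of miR-200a-3p and miR-141-3p, stood 4 times each in Zeb1 and Zeb2. Snai2 and Foxc2 held it 1 time each, and the remaining factors did not hold it. As many stood in 1.2% of the UTRs at least as long as that of Zeb1 and 4.26% of those at least as long as that of Zeb2. CTACCTC, the match to let-7, stood 4 times in Hmga2 and 2 times in Snai1, and 0.288% of the 2779 UTRs at least as long as that of Hmga2 held as many. A match of letters is a description of the sequence and not a measured site. The 5 CAGTATT matches of Zeb2 are shown with their flanks, match in capitals, read from GRCm38 on the minus strand of chromosome 2.
Zeb2 chr2:44988172-44988188: ccatacatCAGTATTtt
Zeb2 chr2:44988107-44988123: cagtgcatCAGTATTac
Zeb2 chr2:44987745-44987761: acccgtgtCAGTATTag
Zeb2 chr2:44987660-44987676: aattttgtCAGTATTac
Zeb2 chr2:44987526-44987542: gtagtgtaCAGTATTat
The 4 let-7 matches of Hmga2 lie on the minus strand of chromosome 10.
Hmga2 chr10:120364223-120364239: ttcaatttCTACCTCag
Hmga2 chr10:120362986-120363002: cctcaataCTACCTCtg
Hmga2 chr10:120362548-120362564: gcaaggaaCTACCTCca
Hmga2 chr10:120361690-120361706: acacactaCTACCTCtt

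Libraries held 27547649 to 67301646 counts, and 13135 genes passed the filter on low counts and were tested. Irf1, the target of the siRNA, had 36.5, 46.2 and 41.0 CPM (the gene's counts scaled to library sizes normalized by edgeR's TMM method) in siIrf1 TGFbeta libraries, against 106 and 112 CPM in siCtr TGFbeta libraries. It had 56.4, 64.1 and 57.7 CPM in siIrf1 0 d libraries, against 148 and 129 CPM in siCtr 0 d libraries. The knockdown was therefore partial, with a 2.64-fold lower level with TGFbeta (edgeR's quasi-likelihood test, adjusted p = 3.48e-04) and a 2.33-fold lower level without (adjusted p = 7.95e-04). Of 8 epithelial markers, 5 were detected at 1 CPM or more (Krt8, Krt18, Krt19, Krt7 and Cdh1), while Epcam and Cldn3 had 1 count each over all libraries and Cldn7 had 0. In bulk RNA, fewer cells of a type and less RNA per cell cannot be told apart. Marker sums of fibroblasts were 12.4 to 13.3 CPM in siIrf1 TGFbeta, 12.9 to 19.0 in siCtr TGFbeta, 0.814 to 0.95 in siIrf1 0 d and 0.424 to 0.589 in siCtr 0 d libraries, with Lum and Thy1 at 0 throughout. Immune marker sums were 2.08 to 3.18 CPM in siIrf1 TGFbeta, 6.23 to 6.85 in siCtr TGFbeta, 2.2 to 2.74 in siIrf1 0 d and 1.85 to 3.14 in siCtr 0 d libraries, with Adgre1 and Cd3e at 0, and endothelial sums were 1.52 to 1.86 CPM in siIrf1 TGFbeta, 5.16 to 5.92 in siCtr TGFbeta, 0 to 0.158 in siIrf1 0 d and 0.152 to 0.157 in siCtr 0 d libraries. Over the libraries, the fibroblast marker Col1a1 ranged from 0.158 to 18.3 CPM, and it is also on the list of mesenchymal genes below. Pdgfra and Dcn reached 1.17 and 1.08 CPM, and Col3a1 had 1 count. The endothelial marker Cdh5 ranged from 0 to 5.81 CPM, and no other of its set exceeded 0.133 CPM. The immune marker Cd68 ranged from 1.29 to 6.49 CPM, and no other of its set exceeded 1.02 CPM. Basal or myoepithelial sums were 13.0 to 24.1 CPM in siIrf1 TGFbeta and 11.1 to 13.7 in siCtr TGFbeta libraries. They were 11.8 to 16.9 CPM in siIrf1 0 d and 13.9 to 16.5 in siCtr 0 d libraries. Within them Krt5 ranged from 1.03 to 16.0 CPM and Acta2 from 0.236 to 18.6 CPM over the libraries, and no other of the set exceeded 1.75 CPM. Acta2 is also on the list of mesenchymal genes below. The part of such cells in the results was not tested.

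A pair of libraries stood apart. The balance of genes of low against high GC content, as the mean log2 deviation of genes in the lowest GC quartile minus that in the highest, was 0.66, -0.39 and 0.77 in siIrf1 TGFbeta replicates 1, 2 and 3, and -0.46 in both siCtr TGFbeta libraries. It was 0.74, 0.19 and 0.93 in the siIrf1 0 d libraries and -1.37 and -0.61 in siCtr 0 d replicates 1 and 3. siIrf1 TGFbeta replicate 2 thus lay with the siCtr libraries, and siCtr 0 d replicate 1 lay beyond all others. This balance moves with the siRNA, so results are also given with the trend of GC content and gene length removed from each library, and without these libraries, wherever that changed a call. Zeb2 transcripts have 40.6% GC, under the lower quartile of genes (44.9%), Hmga2 45.7%, Zeb1 46.1% and Sox4 51.1%, while Snai1 and Foxf2, both at 59.8%, lie above the upper quartile (54.5%).

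Of the 9 factors, 3 were practically silent in every condition. Twist1 (chr12:33957671-33959831, GRCm38.p6) and Foxc2 (chr8:121116171-121118895), both known as inducers of EMT in mammary cells, had 0 counts in all 10 libraries. Snai2 (chr16:14705852-14709395), the paralogue of Snai1 also called Slug, had 1 count in siIrf1 TGFbeta replicate 2, 1 count in siCtr TGFbeta replicate 3 and 0 counts in the other 8. A count of 0 allows a level of up to 3 counts, which is 0.0446 to 0.109 CPM in these libraries and covers counting error only. These 3 genes were below the filter and have no test. The other 6 (Snai1, Zeb1, Zeb2, Foxf2, Hmga2 and Sox4) were tested, and each was over the cutoff of 0.298 CPM in all 3 siIrf1 0 d libraries as well as in the TGFbeta libraries, so that none entered the test through its high groups alone.

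**Figure D1:**
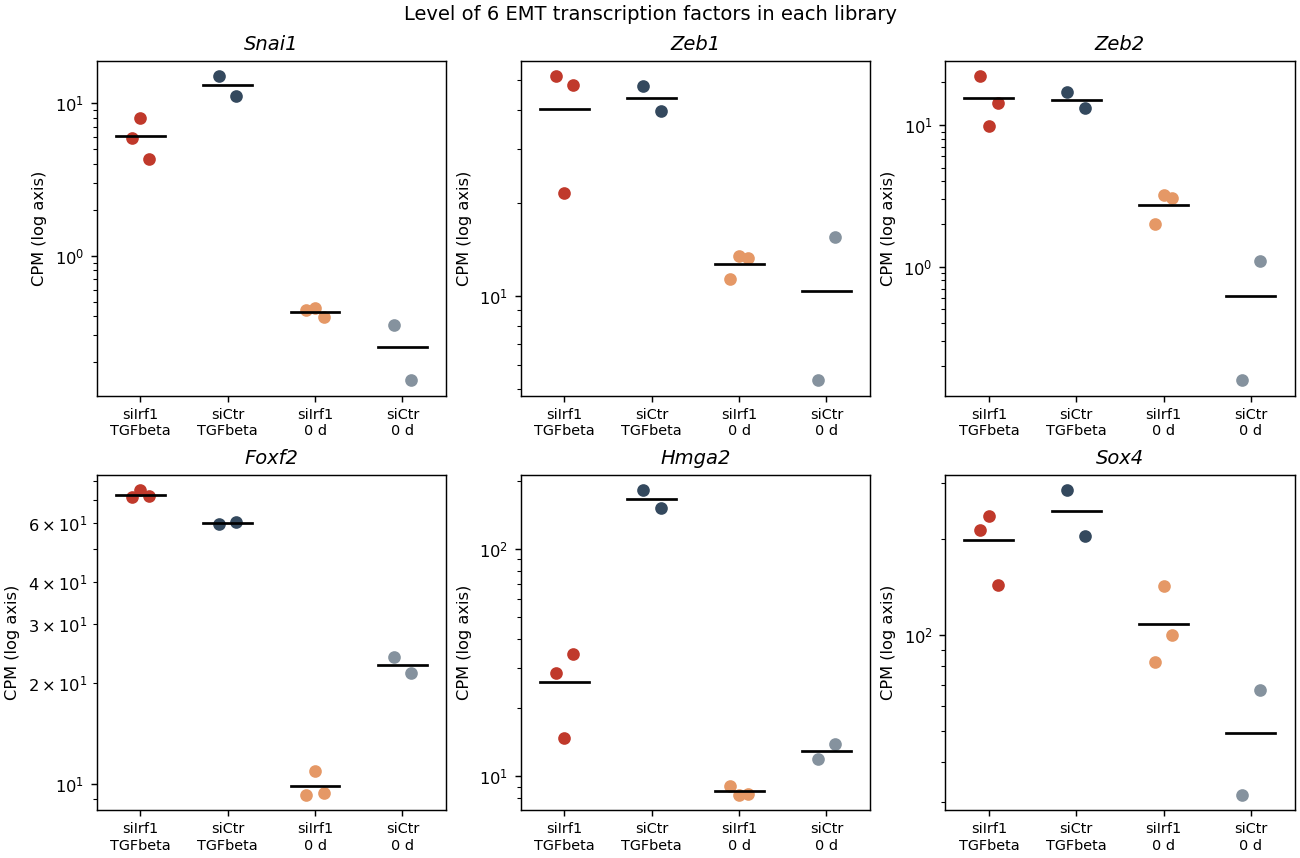
Level of the 6 detected factors in each library, in CPM on a logarithmic axis with its own range in each panel; points are libraries, lines are group means over 3 or 2 libraries. TGFbeta libraries of either siRNA lie above their own 0 d libraries in all panels, and Hmga2 is the factor for which the TGFbeta groups stand farthest apart, at 14.8 to 34.5 CPM in siIrf1 and 152 to 181 CPM in siCtr cells.

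With TGFbeta in siIrf1 cells, 5 of the 6 tested factors rose (edgeR's quasi-likelihood test, adjusted p under 0.05), by 3.01-fold for Hmga2 to 14.0-fold for Snai1, and none fell, also at an unadjusted p under 0.05 and with DESeq2. In siCtr cells all 6 rose, by 2.64-fold for Foxf2 to 53.2-fold for Snai1, and none fell by either measure. Among all genes tested, 11.6% were called higher and 9.71% lower with TGFbeta in siIrf1 cells, and 16.1% higher and 16.3% lower in siCtr cells. The libraries of the 2 groups did not overlap for all 6 factors with either siRNA, nor did those of 17.4% of all genes, higher with TGFbeta, in siIrf1 cells and 36.5% in siCtr cells. The factors were chosen as known EMT genes with results of these data at hand, so the count describes them and is no independent evidence of their direction. The change in siIrf1 cells was larger than in siCtr cells for Foxf2 and smaller for Hmga2, by the test of the difference itself. This interaction passed for 1 factor in each direction, against 2.80% of all genes called higher and 1.32% lower. At an unadjusted p under 0.05, 1 factor was higher and 4 were lower. DESeq2 called 1 higher and 2 lower, beside 729 higher and 442 lower of 13135 genes.

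**Figure D2:**
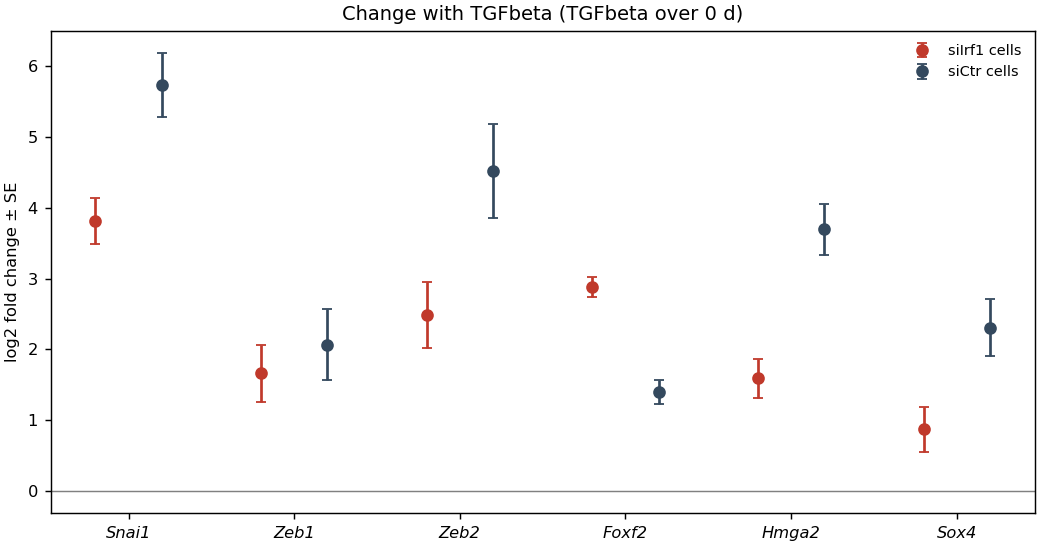
log2 fold change of TGFbeta over 0 d for each factor, in siIrf1 cells (red) and siCtr cells (dark blue), with bars of 1 SE from the edgeR fit. Snai1 changed by 3.81 in siIrf1 and 5.73 in siCtr cells, Hmga2 by 1.59 and 3.70, and Foxf2, with the larger value in siIrf1 cells, by 2.88 and 1.40.

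Snai1 (chr2:167538195-167542814), the repressor that acts early in EMT, was near the floor without TGFbeta and clearly present with it. It had 5.87, 7.94 and 4.33 CPM in siIrf1 TGFbeta libraries and 15.0 and 11.2 CPM in siCtr TGFbeta libraries. It had 0.44, 0.452 and 0.396 CPM in siIrf1 0 d libraries and 0.353 and 0.152 CPM in siCtr 0 d libraries, the last being 9 and 5 counts. Every TGFbeta library lay above every 0 d library, and with TGFbeta the siIrf1 libraries lay below both siCtr libraries. The rise with TGFbeta was 3.81 ± 0.327 in siIrf1 cells (log2 fold change ± SE, adjusted p = 2.52e-05) and 5.73 ± 0.450 in siCtr cells (adjusted p = 1.1e-05), and the rise in siCtr cells ranked 159 of 13135 genes from the largest rise. Both calls held in all 10 fits that left out a library.

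With TGFbeta, Snai1 fell by 1.11 ± 0.295 in siIrf1 against siCtr cells (adjusted p = 0.0261), a 2.16-fold lower level. The call was lost when only the 2 groups were fitted (-1.12, adjusted p = 0.0626). It was also lost without siIrf1 TGFbeta replicate 1 (-1.09) or 3 (-0.92) and without siCtr TGFbeta replicate 2 (-0.94) or 3 (-1.35). Without TGFbeta the difference was 0.81 ± 0.468 (adjusted p = 0.204), on 14, 20 and 15 counts in siIrf1 and 9 and 5 counts in siCtr libraries, and with the length and GC trend removed it was 1.31 and passed (adjusted p = 0.0177). The difference between the changes with TGFbeta (interaction, siIrf1 minus siCtr) was -1.92 ± 0.552 and missed the threshold (adjusted p = 0.0917). It passed with the trend removed (-2.22, adjusted p = 0.00769), with DESeq2 (-1.95, adjusted p = 0.0264), without siIrf1 TGFbeta replicate 2 (-2.18, adjusted p = 0.0474) and without both libraries that stand apart (-2.91, adjusted p = 0.0194).

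The Snai1 promoter is shown because Snai1 protein, in human cells, is known to bind an E-box in its own promoter. The window runs from 250 bases before to 50 bases after the start (chr2:167537945-167538244, plus strand, RefSeq GRCm38.p6), with the E-box in capitals.
Snai1 promoter: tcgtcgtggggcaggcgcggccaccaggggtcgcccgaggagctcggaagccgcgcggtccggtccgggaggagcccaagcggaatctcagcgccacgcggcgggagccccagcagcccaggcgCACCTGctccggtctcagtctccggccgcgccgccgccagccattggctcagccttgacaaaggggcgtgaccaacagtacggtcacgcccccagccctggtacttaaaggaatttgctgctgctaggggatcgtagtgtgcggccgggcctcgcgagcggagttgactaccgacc
CACCTG is the reverse strand of the E-box letters CAGGTG, and its first base lies at -126 from the start site. On either strand, 20.2% of 32851 promoters of this length held CAGGTG. Promoters were at hand for 6 of the 9 factors (Snai1, Zeb2 with 4 starts, Twist1, Foxf2, Hmga2 and Sox4), and no other held it. None held the interferon response element searched (in 3.44% of all promoters), GTCTAGAC, a Smad element (0.213%), or GGCGCC (11.9%), on either strand. These letters are absent from these windows, and nothing follows from that about the factors that read them.

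Zeb1 (chromosome 18), a long-lasting repressor of epithelial genes, rose with TGFbeta in cells of either siRNA. It had 51.5, 21.6 and 48.1 CPM in siIrf1 TGFbeta libraries and 48.0 and 39.8 CPM in siCtr TGFbeta libraries. It had 11.4, 13.5 and 13.3 CPM in siIrf1 0 d libraries and 5.34 and 15.5 CPM in siCtr 0 d libraries. All TGFbeta libraries lay above all 0 d libraries. siIrf1 TGFbeta replicate 2 was low within its group, as was siCtr 0 d replicate 1, the libraries that stand apart in GC balance.

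The Zeb1 log2 fold change with TGFbeta was 1.66 ± 0.402 in siIrf1 cells (adjusted p = 0.0143) and 2.07 ± 0.50 in siCtr cells (adjusted p = 0.0108). In siIrf1 cells the call was lost without siIrf1 TGFbeta replicate 1 (1.45, adjusted p = 0.0541) and without siIrf1 0 d replicate 1 (1.59, adjusted p = 0.0625) or 3 (1.70, adjusted p = 0.0502). In siCtr cells it was lost without siCtr TGFbeta replicate 2 (2.00, adjusted p = 0.0503), and the value was 1.54 without siCtr 0 d replicate 1, with or without siIrf1 TGFbeta replicate 2, and 3.16 without siCtr 0 d replicate 3. The siRNA made no detectable difference to Zeb1, at -0.12 ± 0.435 with TGFbeta (adjusted p = 0.884) and 0.28 ± 0.447 without (adjusted p = 0.652). Both signs turn with the libraries chosen, to 0.18 with TGFbeta without siIrf1 TGFbeta replicate 2 and to -0.30 without TGFbeta without siCtr 0 d replicate 1. Without siCtr 0 d replicate 3, siIrf1 0 d cells were higher (1.32, adjusted p = 0.0406).

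Zeb2 (chr2:44983512-45117442), the paralogue of Zeb1 that also binds Smad proteins, was much rarer without TGFbeta. It had 22.1, 9.79 and 14.4 CPM in siIrf1 TGFbeta libraries and 17.0 and 13.1 CPM in siCtr TGFbeta libraries. It had 2.01, 3.19 and 3.03 CPM in siIrf1 0 d libraries and 0.157 and 1.09 CPM in siCtr 0 d libraries, the last being 4 and 36 counts. No TGFbeta library overlapped a 0 d library, and the 3 siIrf1 0 d libraries lay above both siCtr 0 d libraries. The rise with TGFbeta was 2.48 ± 0.469 in siIrf1 cells (adjusted p = 0.00372) and 4.52 ± 0.661 in siCtr cells (adjusted p = 5.96e-04). The value in siCtr cells varied with the 0 d library used: it was 3.82 without siCtr 0 d replicate 1 and 6.67 without replicate 3, both called. The interaction was -2.04 ± 0.768 (adjusted p = 0.194), and passed without siCtr 0 d replicate 3 (-4.20, adjusted p = 0.0131).

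Without TGFbeta, Zeb2 rose by 2.07 ± 0.606 in siIrf1 against siCtr cells (adjusted p = 0.0277), a 4.21-fold higher level. This was the factor result that moved most when the trends of length and GC content were removed together, to 0.67 (adjusted p = 0.188), or 0.57 with the replicate block as well; the part of each trend was not tested, and Zeb2 is also the longest of the 9 genes in the table (9355 bases). The replicate block alone gave 2.13, which just missed the threshold (adjusted p = 0.0502). The call was also lost without siCtr 0 d replicate 1 (1.32, adjusted p = 0.109) and without siIrf1 0 d replicate 2 (1.95) or 3 (2.00), and the value was 4.17 without siCtr 0 d replicate 3. With TGFbeta the difference was 0.03 ± 0.488 (adjusted p = 0.972), and with the trend removed it was -0.79 and passed (adjusted p = 0.048). The antisense transcript Zeb2os had 0 to 6 counts per library. The annotated neighbour Gm10125 at Zeb1 had 0 to 2 counts.

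Foxf2 (chr13:31625816-31631406), a forkhead factor of developing mesenchyme, was lower with siIrf1 than with siCtr without TGFbeta and not past the threshold with it. It had 71.4, 74.8 and 71.9 CPM in siIrf1 TGFbeta libraries and 59.2 and 60.2 CPM in siCtr TGFbeta libraries. It had 9.29, 10.9 and 9.39 CPM in siIrf1 0 d libraries and 23.8 and 21.4 CPM in siCtr 0 d libraries. Replicates were close in every group: siIrf1 libraries lay above siCtr libraries with TGFbeta, and below them without. Foxf2 fell by 1.19 ± 0.151 in siIrf1 against siCtr cells without TGFbeta (adjusted p = 8.24e-04), a 2.29-fold lower level that was called in all 10 fits that left out a library, and the value with the trend removed was -0.68 (adjusted p = 0.0162). With TGFbeta the difference was 0.29 ± 0.152 (adjusted p = 0.236) and passed only with the trend removed, alone (0.56, adjusted p = 0.0427) or with the replicate block (0.51, adjusted p = 0.045).

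The rise of Foxf2 with TGFbeta was 2.88 ± 0.146 in siIrf1 cells (adjusted p = 1.35e-06) and 1.40 ± 0.169 in siCtr cells (adjusted p = 1.63e-04), which is 7.36-fold and 2.64-fold. The difference between these changes was 1.48 ± 0.216 (interaction, adjusted p = 0.00502). It was 1.24 with the trend removed (adjusted p = 0.0147). The call was lost without siCtr TGFbeta replicate 2 (1.38, adjusted p = 0.0674) or 3 (1.42, adjusted p = 0.0541), each of which leaves that group with 1 library whose spread is taken from the other groups. It equals the siRNA difference with TGFbeta (0.29) minus that without (-1.19).

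Hmga2 (chr10:120361268-120476469) showed the widest gap between the siRNAs. It had 28.4, 14.8 and 34.5 CPM in siIrf1 TGFbeta libraries and 181 and 152 CPM in siCtr TGFbeta libraries. It had 9.07, 8.32 and 8.39 CPM in siIrf1 0 d libraries and 11.9 and 13.9 CPM in siCtr 0 d libraries. siIrf1 libraries lay below siCtr libraries in both conditions, and the 3 siIrf1 TGFbeta libraries lay between the 0 d libraries and the siCtr TGFbeta libraries. With TGFbeta, Hmga2 fell by 2.69 ± 0.296 in siIrf1 against siCtr cells (adjusted p = 4.2e-04), a 6.45-fold lower level that ranked 115 of 13135 genes from the largest fall. The call held in all 10 fits that left out a library, over values of -2.95 to -2.41, and with the trend removed (-2.90, adjusted p = 9.93e-06).

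The rise of Hmga2 with TGFbeta was 1.59 ± 0.273 in siIrf1 cells (adjusted p = 0.00219) and 3.70 ± 0.359 in siCtr cells (adjusted p = 4.63e-05), which is 3.01-fold and 13.0-fold. The interaction was -2.11 ± 0.425 (adjusted p = 0.025). It was lost without siCtr TGFbeta replicate 2 (-2.06, adjusted p = 0.113) or 3 (-2.30, adjusted p = 0.0631), without siIrf1 0 d replicate 1 (-2.07), 2 (-2.13) or 3 (-2.12) and without siCtr 0 d replicate 1 (-2.04), while the value stayed between -2.37 and -1.82. Without TGFbeta the siRNA difference was -0.58 ± 0.298 (adjusted p = 0.156). It passed with the trend removed (-1.06, adjusted p = 0.0029), with that and the replicate block (-1.01, adjusted p = 0.0124), without siIrf1 TGFbeta replicate 2 (-0.58, adjusted p = 0.0187) and without both libraries that stand apart (-0.70, adjusted p = 0.0234).

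Hmga2 has a transcribed pseudogene, Hmga2-ps1 (chr1:176834624-176836133), and how the authors counted reads that match both is not given in the sources used here, so the Hmga2 levels are uncertain to that extent. Hmga2-ps1 had 11.7, 10.2 and 9.75 CPM in siIrf1 TGFbeta libraries and 31.9 and 41.3 CPM in siCtr TGFbeta libraries. It had 4.65, 3.19 and 3.67 CPM in siIrf1 0 d libraries and 7.46 and 5.70 CPM in siCtr 0 d libraries. It had fewer counts than Hmga2 in all 10 libraries, but it is the shorter gene. Per gene length (RPKM, CPM divided by gene length in kilobases) its mean was above that of Hmga2 in all groups but siCtr TGFbeta. The means were 7.0 against 6.21 RPKM in siIrf1 TGFbeta and 24.3 against 40.0 in siCtr TGFbeta cells. They were 2.54 against 2.06 RPKM in siIrf1 0 d and 4.36 against 3.08 in siCtr 0 d cells. Hmga2-ps1 followed the same order of groups as Hmga2, with a log2 fold change of -1.79 in siIrf1 against siCtr cells with TGFbeta. The lncRNA 9230105E05Rik, which overlaps Hmga2, had 0 to 17 counts per library. The lncRNAs 1700006J14Rik, Gm40783 and Gm51785 also overlap Hmga2, and the lncRNA Gm46405 overlaps Sox4. These lncRNAs were not among the genes counted, so their reads cannot be told apart here. The microRNA gene Mir763 at Hmga2 had 0 to 2 counts, and Mir5129 at Zeb2 had 0.

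Sox4 (chr13:28948919-28953699) had the highest level per gene length of the 9 factors in every library. It had 214, 236 and 144 CPM in siIrf1 TGFbeta libraries and 284 and 205 CPM in siCtr TGFbeta libraries. It had 82.6, 143 and 100 CPM in siIrf1 0 d libraries and 31.7 and 67.2 CPM in siCtr 0 d libraries. The groups of either siRNA did not overlap between TGFbeta and 0 d, but siIrf1 TGFbeta replicate 3 and siIrf1 0 d replicate 2 were nearly equal. The change of Sox4 with TGFbeta was 0.87 ± 0.314 in siIrf1 cells (adjusted p = 0.0805), 1.83-fold, and missed the threshold, and in siCtr cells it rose by 2.30 ± 0.401 (adjusted p = 0.00176), 4.94-fold. The value in siCtr cells was 1.90 without siCtr 0 d replicate 1 and 3.07 without replicate 3, both called. In siIrf1 cells the change passed with only the 2 groups in the fit (0.87, adjusted p = 0.0491), with DESeq2 (0.89, adjusted p = 0.0342), without siCtr 0 d replicate 1 (adjusted p = 0.0264) or 3 (adjusted p = 0.0258) and without both libraries that stand apart (0.70, adjusted p = 0.0391).

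Without TGFbeta, Sox4 rose by 1.13 ± 0.363 in siIrf1 against siCtr cells (adjusted p = 0.039), 2.20-fold, and the 3 siIrf1 libraries lay above both siCtr libraries. With the trend removed it was 1.35 (adjusted p = 0.0205). The call was lost in 6 of the 10 fits that left out a library (without siIrf1 TGFbeta replicate 1, siCtr TGFbeta replicate 2 or 3, siIrf1 0 d replicate 2 or 3, or siCtr 0 d replicate 1), over values of 0.68 without siCtr 0 d replicate 1 to 1.84 without siCtr 0 d replicate 3. It was also lost with no filter on low counts (1.15), with only the 2 groups fitted (1.13), with the replicate block (0.96, adjusted p = 0.0546) and without both libraries that stand apart (0.68, adjusted p = 0.135). With TGFbeta the difference was -0.30 ± 0.346 (adjusted p = 0.616) and the groups overlapped. The interaction was -1.44 ± 0.497 (adjusted p = 0.158), and passed without siCtr 0 d replicate 3 (-2.19, adjusted p = 0.019).

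Counted over the factors, the siRNA comparison with TGFbeta had 2 falls (Snai1 and Hmga2) and no rise among 6. Of all genes, 8.28% were called lower and 9.72% higher. No factor rose with DESeq2 or at an unadjusted p under 0.05. With the length and GC trend removed, 3 fell (Snai1, Hmga2 and Zeb2) and 1 rose (Foxf2), beside 1831 lower and 1766 higher of 13135 genes. Without TGFbeta the siRNA comparison had 2 rises (Zeb2 and Sox4) and 1 fall (Foxf2) among 6, where 16.3% of all genes were called higher and 15.5% lower. With the trend removed, 2 rose (Snai1 and Sox4) and 2 fell (Foxf2 and Hmga2), beside 2133 higher and 2602 lower of 13135 genes.

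**Figure D3:**
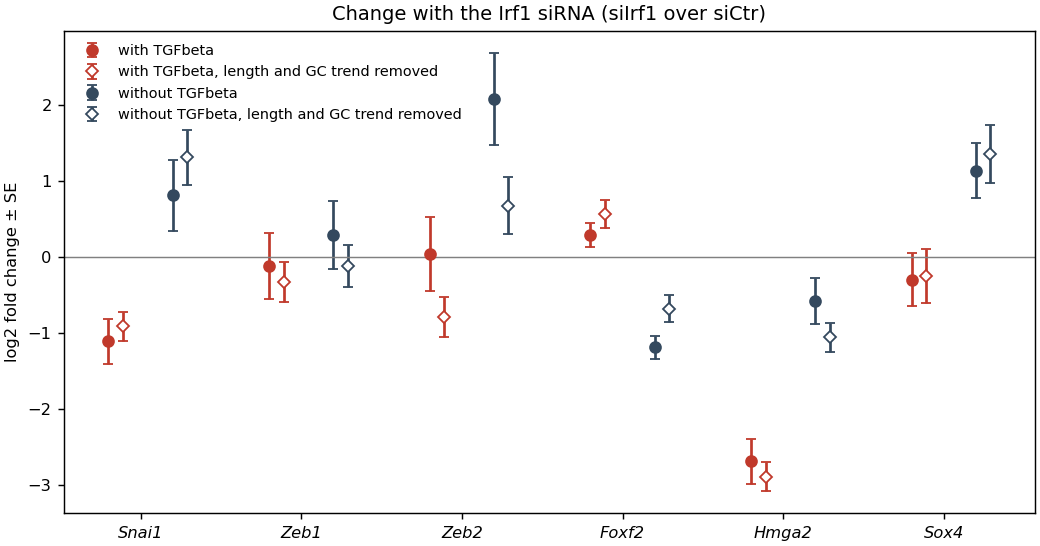
log2 fold change of siIrf1 over siCtr for each factor, with TGFbeta (red) and without (dark blue), with bars of 1 SE; filled circles are the edgeR fit and open diamonds the fit with the length and GC trend removed. Hmga2 with TGFbeta is at -2.69 and -2.90, Foxf2 without TGFbeta at -1.19 and -0.68, and Zeb2 without TGFbeta at 2.07 and 0.67.

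Levels of different genes were compared per gene length, as RPKM (CPM divided by the gene length of the table in kilobases). Sox4 led every group, with means of 67.2 RPKM in siIrf1 TGFbeta, 82.8 in siCtr TGFbeta, 36.8 in siIrf1 0 d and 16.7 in siCtr 0 d cells. Foxf2 was second in siIrf1 TGFbeta (30.7 RPKM), siIrf1 0 d (4.17) and siCtr 0 d (9.55) cells. In siCtr TGFbeta cells Hmga2 was second at 36.5 to 43.4 RPKM, above Foxf2 at 25.0 to 25.4. In siIrf1 TGFbeta cells Hmga2 (3.55 to 8.26 RPKM), Zeb1 (3.71 to 8.86) and Snai1 (2.68 to 4.90) overlapped one another.

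Snai1 and Zeb1 also overlapped in siCtr TGFbeta cells, at 6.94 to 9.28 and 6.86 to 8.26 RPKM. Zeb2 was the lowest of the 6 with TGFbeta, at 1.05 to 2.36 RPKM in siIrf1 and 1.40 to 1.81 in siCtr cells. In siIrf1 0 d cells Zeb1 (1.97 to 2.32 RPKM) and Hmga2 (1.99 to 2.17) overlapped, as did Zeb2 (0.215 to 0.341) and Snai1 (0.245 to 0.28) below them. In siCtr 0 d cells Snai1 (0.0937 to 0.218 RPKM) and Zeb2 (0.0168 to 0.117) overlapped at the bottom, and Hmga2 (2.84 to 3.32) lay above Zeb1 (0.92 to 2.67).

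**Figure D4:**
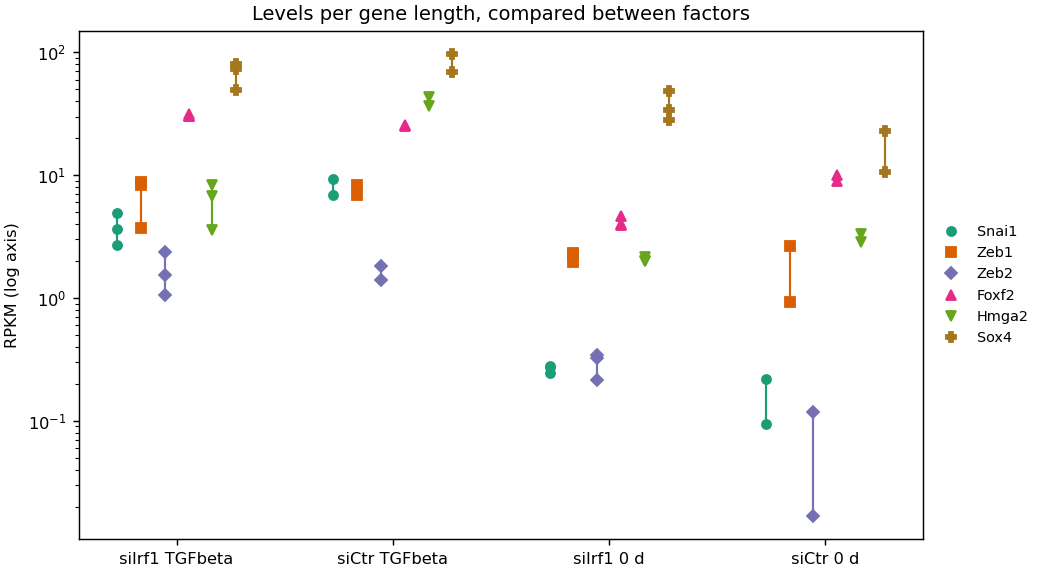
RPKM of the 6 detected factors in each group on a logarithmic axis; points are libraries and a line joins the lowest to the highest library of a group. Sox4 is highest in all 4 groups, and Hmga2 stands above Foxf2 in siCtr TGFbeta cells alone, at a mean of 40.0 against 25.2 RPKM.

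The patterns of the factors over the 10 libraries were compared by Pearson's r of log2 CPM, which describes these libraries only, since they share depth, GC balance and the treatment groups. Among the 6 factors, r was highest between Zeb2 and Sox4 (0.952) and between Zeb1 and Zeb2 (0.941), and lowest between Foxf2 and Sox4 (0.588). Among 11548 genes with at least 1 CPM on average, the closest to each factor were Odaph (0.993) and Ak1 (0.992) for Snai1, Fam102b (0.992) and Maml2 (0.984) for Zeb1, and Ell2 (0.991) and Tmsb4x (0.989) for Zeb2. For Foxf2 they were Ctse (0.993) and Col15a1 (0.991), for Hmga2 Tnc (0.986) and Apbb2 (0.984), and for Sox4 Ninl (0.977) and Zfp30 (0.968).

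Other transcription factors tied to EMT were counted for comparison, 33 in all, of which 22 could be tested. With TGFbeta, 8 rose and 1 fell in siIrf1 cells (list median 0.70 on the log2 scale) and 10 rose and 2 fell in siCtr cells (list median 1.03), where the median of all genes was 0.02 in both. Over all genes, 11.6% rose and 9.71% fell in siIrf1 cells, and 16.1% rose and 16.3% fell in siCtr cells. Ets1, of the ETS family, averaged 218 ± 35.6 CPM in siIrf1 TGFbeta and 92.0 ± 7.66 CPM in siIrf1 0 d cells (SD, n = 3 each), a log2 change of 1.24. In siCtr cells it averaged 244 ± 22.3 CPM with TGFbeta and 76.8 ± 16.5 CPM without (SD, n = 2 each), a log2 change of 1.67. Sox9, an HMG-box factor, rose by 1.62 on the log2 scale in siIrf1 and 1.83 in siCtr cells. Id2, which lacks a DNA-binding region and inhibits E proteins, is on the list as a counterpart of these factors. It fell with TGFbeta, with a log2 change of -1.78 in siIrf1 cells and -2.38 in siCtr cells.

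In siIrf1 against siCtr cells, 1 of these 22 genes rose and 4 fell with TGFbeta, and 3 rose and 6 fell without (list medians -0.20 and -0.43). Over all genes, 9.72% rose and 8.28% fell with TGFbeta, and 16.3% rose and 15.5% fell without. The 9 calls without TGFbeta came to 2 without siCtr 0 d replicate 1. With TGFbeta, Id2 rose by 1.56 (adjusted p = 0.00563) and Mrtfa, a coactivator of serum response factor, fell by 1.36 (adjusted p = 0.00631). The call of Id2 was lost without siCtr TGFbeta replicate 2 (1.64) or 3 (1.39), and that of Mrtfa without replicate 2 (-1.21). Without siCtr TGFbeta replicate 2 none of the 22 passed. With the length and GC trend removed, 10 of the 22 passed with TGFbeta, where 3597 of 13135 genes did. DESeq2 called 11 without TGFbeta. For the interaction, 0 of 22 passed with edgeR, 2 in each direction had an unadjusted p under 0.05, and DESeq2 called 1 lower.

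Of 29 partners and regulators of the factors, such as corepressors, Polycomb proteins, kinases, Smad proteins and TGFbeta receptors, 27 could be tested. With TGFbeta, 2 rose and 1 fell in siIrf1 cells and 3 rose and 2 fell in siCtr cells, with list medians of 0.10 and 0.25. These counts, 3 and 5 of 27, are at or under the shares of all genes (11.6% and 9.71% in siIrf1 cells, 16.1% and 16.3% in siCtr cells). In siIrf1 cells the count was 1 without siIrf1 TGFbeta replicate 1 or siIrf1 0 d replicate 1 or 2. Tgfbr1, the type I TGFbeta receptor, rose by 1.85 on the log2 scale in siIrf1 cells and 2.87 in siCtr cells. In siIrf1 cells that call was lost without siIrf1 TGFbeta replicate 1 (1.56) or 3 (1.74) and without siIrf1 0 d replicate 1 (1.81) or 2 (1.70). In siCtr cells, 1 member was called without siCtr 0 d replicate 1 and 15 with the trend removed. In siIrf1 against siCtr cells, 2 rose and none fell with TGFbeta (2 fell at an unadjusted p under 0.05 and 1 with DESeq2), and 6 rose and 2 fell without, beside 9.72% and 8.28% of all genes with TGFbeta and 16.3% and 15.5% without. Fewer were called with TGFbeta without siCtr TGFbeta replicate 2 or 3, and without TGFbeta when siCtr 0 d replicate 1 was left out. More were called with TGFbeta without both libraries that stand apart. Each of these fits leaves 1 library in a group. With the length and GC trend removed, 13 were called without TGFbeta, where 4735 of 13135 genes were.

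Cdh1, the classical target of Snai and Zeb repressors, had 577, 702 and 722 CPM in siIrf1 TGFbeta libraries and 339 and 363 CPM in siCtr TGFbeta libraries. It had 621, 608 and 581 CPM in siIrf1 0 d libraries and 694 and 586 CPM in siCtr 0 d libraries. The siCtr TGFbeta libraries were thus the only low ones. The change with TGFbeta was 0.15 in siIrf1 cells (adjusted p = 0.516), while in siCtr cells Cdh1 fell by 0.87 (adjusted p = 0.00256), lost without siCtr TGFbeta replicate 2 (-0.73, adjusted p = 0.062). With TGFbeta, siIrf1 cells had 1.90-fold more Cdh1 than siCtr cells (log2 0.93, adjusted p = 0.00295), also lost without that library (0.83, adjusted p = 0.0648). The interaction was 1.01 (adjusted p = 0.0262) and was lost without either siCtr TGFbeta library, without any siIrf1 0 d library and without siCtr 0 d replicate 1, over adjusted p-values up to 0.236. It was also lost with the replicate block (1.03, adjusted p = 0.0529) and without both libraries that stand apart (0.79, adjusted p = 0.0888).

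Of 28 epithelial genes known as targets of these repressors, Cdh1 among them, 20 could be tested, and they did not move one way. With TGFbeta, 4 rose and 4 fell in siIrf1 cells, beside 11.6% and 9.71% of all genes, and 8 rose and 9 fell in siCtr cells, beside 16.1% and 16.3%. The number called in siCtr cells was 7 in place of 17 without siCtr TGFbeta replicate 2. Muc1, an apical mucin, averaged 39.0 ± 5.04 CPM in siIrf1 TGFbeta and 102 ± 14.2 CPM in siIrf1 0 d cells (SD, n = 3 each), and 37.0 ± 2.59 CPM in siCtr TGFbeta and 448 ± 62.1 CPM in siCtr 0 d cells (SD, n = 2 each). Its fall was smaller in siIrf1 cells (interaction 2.21, adjusted p = 0.0016). The siRNA groups differed before TGFbeta, with Muc1 lower in siIrf1 0 d than in siCtr 0 d cells (log2 difference -2.13, adjusted p = 1.51e-04). Cldn4, a tight junction claudin, went the other way and rose by 6.12 in siIrf1 cells and 8.47 in siCtr cells, with 58 counts over the 3 siIrf1 0 d libraries and 11 over both siCtr 0 d libraries.

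In siIrf1 against siCtr cells with TGFbeta, 5 of the 20 epithelial genes rose and 4 fell, beside 9.72% and 8.28% of all genes, with a list median of 0.26 beside 0.05 over all genes. Those that rose included Cdh1 (log2 difference 0.93), Cgn (0.95) and Patj (0.84). Among those that fell were the epithelial transcription factors Grhl2 and Elf3. Grhl2 had a log2 difference of -2.59 at 0.211 ± 0.0751 CPM in siIrf1 and 1.27 ± 0.000222 CPM in siCtr cells (SD, n = 3 and 2). These levels rest on 28 counts in siIrf1 and 106 in siCtr libraries. Elf3 had -1.34 at 18.6 ± 3.86 CPM in siIrf1 and 47.1 ± 1.89 CPM in siCtr cells (SD, n = 3 and 2). The number called was 2 without siCtr TGFbeta replicate 2 and 14 without both libraries that stand apart. Without TGFbeta, 1 rose and 6 fell, beside 16.3% and 15.5% of all genes. Fewer were called without siCtr 0 d replicate 1, which leaves 1 library in that group. With the length and GC trend removed, 12 were called, where 4735 of 13135 genes were.

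Of 20 mesenchymal genes raised in EMT, 16 could be tested. With TGFbeta, 14 rose and none fell in siIrf1 cells and 15 rose and none fell in siCtr cells, none falling with DESeq2 or at an unadjusted p under 0.05 either, with list medians of 2.33 and 4.66, beside 11.6% of all genes that rose in siIrf1 cells and 16.1% in siCtr cells. In siIrf1 against siCtr cells with TGFbeta, 10 fell and none rose (none with DESeq2 or unadjusted), with a list median of -1.03, beside 8.28% of all genes that fell. Without TGFbeta 3 rose and 2 fell, which is near the 16.3% and 15.5% of all genes, and 2 were called without siIrf1 TGFbeta replicate 1 or siIrf1 0 d replicate 1 or 3. Itga5, the fibronectin receptor subunit, averaged 43.3 ± 3.57 CPM in siIrf1 TGFbeta cells (SD, n = 3) and 260 ± 14.2 CPM in siCtr TGFbeta cells (SD, n = 2), a log2 difference of -2.59. The test of the difference between the changes with TGFbeta passed for 4 of the 16, all lower in siIrf1 cells. Over all genes, 1.32% were called lower and 2.8% higher in this test. Of the 16, 6 were lower with DESeq2 and 9 at an unadjusted p under 0.05, and none was higher by either measure.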

How the data were processed

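RNA was extracted with on-column DNase digestion, made into stranded libraries (TruSeq Stranded RNA LT) and sequenced on an Illumina HiSeq instrument, per the labels' protocols. The authors deposited whole-number read counts per gene and a gene length for 10 libraries. Reads were aligned with STAR to mm10 (GRCm38), per the submitters' processing notes. The sources used here do not give the STAR version, the counting tool or whether counting used the strand. Overlapping genes and close copies may therefore share reads. Symbols came from RefSeq (24374 of 24454 identifiers) and GENCODE M21 (7); the 73 without a name held 0.211 to 1.50% of a library's counts.

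The counts of all 10 libraries entered 1 model with 4 group terms, in edgeR 4.0.16 under R 4.3.3. Normalization was TMM, low genes were dropped by filterByExpr, and the robust quasi-likelihood test ran on 13135 genes with 6 residual degrees of freedom. P-values are two-sided and adjusted by Benjamini-Hochberg over all genes tested, with a threshold of 0.05. Each SE was derived from the log2 fold change and its F statistic. Alternatives were RLE factors, no filter, a stricter filter (3 libraries or more with 2 CPM), DESeq2 1.42.0, only the compared groups, the replicate number as a block, removal of a trend with gene length and GC content (fitted per library and entered as offsets), that with the block, leaving out each library and, chosen after seeing the data, leaving out both libraries that stand apart. For GC content the longest transcript in GENCODE M21 was used, available for 95% of genes. The fit was also run on simulated counts with the same spread for every gene and no trend of GC content or length. That run does not test the calls made here. No replicate was a copy of another: chi-square between replicates was 25.5 to 322 per degree of freedom.

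The members and lists were chosen with earlier results of these data known, and the microRNA search was added later. Named are the 9 factors, Irf1, Cdh1, genes overlapping a factor, the 2 genes most alike to each, and list members with the smallest adjusted p, of which only some are reported. Deviations of same-numbered libraries had positive correlations between siIrf1 TGFbeta and siIrf1 0 d cells (0.136, 0.448 and 0.302). However, siIrf1 TGFbeta replicate 1 correlated more with siIrf1 0 d replicate 3 (0.28) than with its own number. Over all groups the same-numbered correlations ran from -0.393 to 0.448. The main fit did not pair libraries in any comparison, and the replicate number entered only as the block of an alternative.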

Additional observations from a re-analysis of the deposited data

Results flagged for a closer look

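The change of Foxf2 with TGFbeta differed between siIrf1 and siCtr cells by 1.48 on the log2 scale in the test of the difference itself, with a rise of 2.88 in siIrf1 cells and 1.40 in siCtr cells. The change of Hmga2 differed by -2.11 in the same test, with a rise of 1.59 in siIrf1 cells and 3.70 in siCtr cells. Their levels in each library are given with these genes above. Of the 10 fits that left out a library, the interaction was called in 8 for Foxf2 and in 4 for Hmga2. The values ran from 1.36 to 1.56 for Foxf2 and from -2.37 to -1.82 for Hmga2. No group of 3 or 2 libraries was large enough for a test of single outlying libraries.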

How the results depend on the processing

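Of 564 comparisons of a factor's value with an alternative, 494 kept their direction and their side of the threshold, 33 lost and 21 gained the call, and 16 changed sign. None of those that changed sign was called in the main test. The number of factors called was 1 with the replicate block for siIrf1 against siCtr without TGFbeta, in place of 3. For siIrf1 against siCtr with TGFbeta it was 1 with only the compared groups and 4 with the length and GC trend removed, in place of 2. Leaving out a library gave 4 to 6 factors for TGFbeta in siIrf1 cells, 5 to 6 in siCtr cells, 1 to 2 for the siRNA with TGFbeta, 1 to 4 without it and 0 to 4 for the interaction. The block changed no factor's call for TGFbeta in siIrf1 cells (5 called). Between siIrf1 0 d and siCtr 0 d cells the same-numbered correlations of deviations were 0.124 and 0.333. They were -0.039 and 0.046 between the TGFbeta groups, and -0.304 between the siCtr groups. The sample titles tie each number to a further token whose meaning the labels do not give. For the siRNA without TGFbeta, the block ended the calls of Zeb2 (2.13, adjusted p = 0.0502) and Sox4 (0.96, adjusted p = 0.0546). It also ended that of the Cdh1 interaction.

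With the trend removed, Zeb1 without TGFbeta was -0.12 (-0.081 with the block), Zeb2 with TGFbeta -0.79 (-0.71 with the block) and Cdh1 without TGFbeta 0.0493 (0.0391 with the block). Without both libraries that stand apart, Zeb1 was 0.11 with TGFbeta, -0.30 without it and 0.41 in the interaction, and Cdh1 was 0.0312 without TGFbeta. Zeb2 with TGFbeta was -0.027 with no filter and -0.0373 with the stricter one. Leaving out a library gave -0.34 to 0.18 for Zeb1 with TGFbeta, -0.30 to 1.32 without it and -1.50 to 0.11 in the interaction, -0.32 to 0.28 for Zeb2 with TGFbeta, and -0.14 to 0.0322 for Cdh1 without TGFbeta. The cause was not tested. On raw totals, 1 of 24 mean levels moved by more than its SD (Foxf2 in siCtr TGFbeta, 57.1 CPM).

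Over all genes, 2799 were called for TGFbeta in siIrf1 cells (4375 with the trend removed, 4353 with the block too, 4873 without both libraries that stand apart). In siCtr cells it was 4267 (2297 without siCtr TGFbeta replicate 2, 2788 without siCtr 0 d replicate 1). For the siRNA it was 2365 with TGFbeta (3597 with the trend removed, 4897 without both libraries, 1570 without siIrf1 TGFbeta replicate 1, 762 and 859 without siCtr TGFbeta replicate 2 or 3) and 4175 without it (2583, 2245 and 1700 without siIrf1 0 d replicate 1 or 3 or siCtr 0 d replicate 1). For the interaction it was 541 (1252 with the trend removed, 937 with the block too, 1171 with DESeq2, 122 to 1590 leaving out a library). Groups of 2 libraries limit all siCtr values, and low counts those of Snai1 and Zeb2 at 0 d.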
